A study of Arabidopsis thaliana with 6 samples.

Results

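The mitosis and cytokinesis genes described here are 44 Arabidopsis thaliana loci that act when a cell divides. They were chosen by function and locus number, and comprise A-type and B-type cyclins, B-type cyclin-dependent kinases (CDKs) and their CKS subunits, MYB3R regulators, Aurora kinases and spindle proteins, regulators of the spindle checkpoint and of the anaphase-promoting complex (APC/C), chromosome proteins and cytokinesis proteins. No measured level was a criterion, but earlier results of these data were known when the genes were chosen. All 44 had a probe that matches 1 locus, all 44 passed the filter on background, and they are 44 of 20290 loci tested and of 28324 with such a probe. Levels were measured in total RNA of the 3rd or 4th leaf, 4 days after emergence, on 1-colour Agilent arrays. Plants of 3 genotypes were grown on soil for 13 days under 16 h light and 8 h dark and harvested 5 h after light-on, with no other treatment named. The genotypes were Col, the wild type, ore15-1D, a dominant allele of ORE15, and ore15-2, known as a loss-of-function allele of the same gene. How the alleles were made and how many plants gave a sample are not given in the sources used here. Every genotype had 2 independent biological samples on 1 array each.

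A plant cell enters mitosis when A-type and B-type cyclins bind and activate CDKs. Many genes of this phase carry a common promoter element that MYB3R proteins bind, and their RNA is high only in dividing cells shortly before and during mitosis. The APC/C ends mitosis by marking cyclins and other proteins for breakdown, while the spindle checkpoint holds it back until chromosomes are attached. The dividing cell then builds a phragmoplast, a microtubule array that guides vesicles to the new cell wall. In a young leaf, division ceases first at the tip and last at the base, and remaining cells expand and often copy their DNA without dividing. In whole leaves, fewer dividing cells and less RNA per dividing cell cannot be told apart.

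ORE15 (AT1G31040) itself, which codes for a PLATZ protein, one of a family of zinc-binding proteins found in plants, was the check of the genotypes. Its probe lies on chromosome 1, 11069800 to 11069859 (TAIR10). Relative to the 75th percentile of an array's signals, the log2 level was 2.75 and 2.66 in ore15-1D, -4.90 and -4.79 in Col, and -6.37 and -8.44 in ore15-2, where 1 of 2 arrays was well above background. The log2 change was 7.55 ± 0.67 (SE) in ore15-1D (limma, adjusted p = 0.00545) and -2.56 ± 0.67 in ore15-2, which did not pass (adjusted p = 0.125). Between 67.8% and 73.0% of probe spots on an array were well above background, and 0 spots were saturated. Slide 1 held both ore15-1D arrays and Col replicate 1, and slide 2 held Col replicate 2 and both ore15-2 arrays. No slide held both mutants.

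The mitosis and cytokinesis genes were higher in ore15-1D than on any array of the other genotypes, and 15 of them passed the test against Col. In ore15-2 none passed, and 32 of 44 lay below both Col arrays. Both ore15-1D arrays lay above all other arrays for 44 of 44 genes, an order that 34.1% of all genes tested on all arrays showed. The median log2 change over the 44 genes was 0.89 in ore15-1D and -0.69 in ore15-2, against -0.01 and 0.01 over all genes tested. In ore15-1D, 15 of 44 rose and 0 fell at an adjusted p below 0.05 (limma, Benjamini-Hochberg over all genes tested). In the same comparison 18.6% of all genes tested rose and 22.1% fell, 40.6% together. In ore15-2, 0 of 44 passed (limma; 8 at an unadjusted p below 0.05), where 3.73% of all genes tested did (2.15% higher, 1.57% lower). The ore15-1D arrays exceeded both Col arrays for 44 of 44 genes, which 40.0% of all genes did, and the ore15-2 arrays lay below both Col arrays for 32 of 44, which 26.0% of all genes did. One gene, MYB3R1, lay above both Col arrays in ore15-2, as 26.4% of all genes did. Both mutants were compared with the same Col arrays, so a high Col array lowers both changes.

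**Figure D1:**
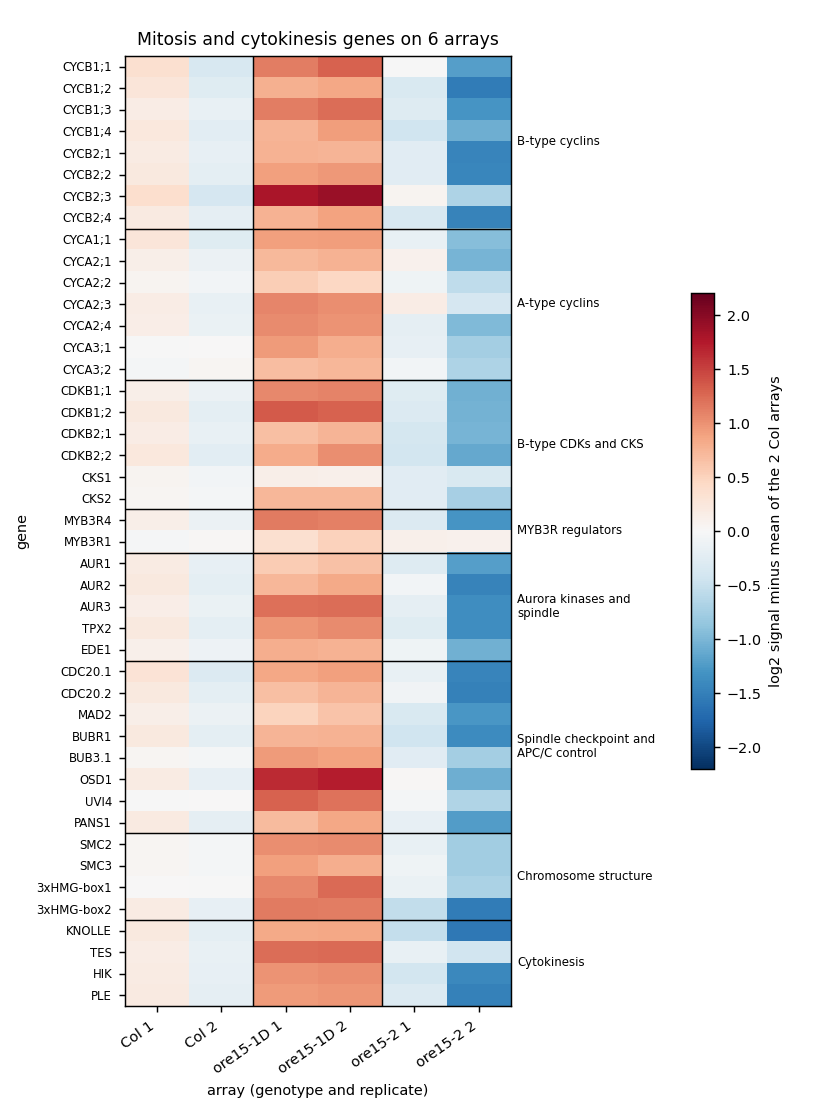
Log2 signal of each of the 44 genes (rows, by role) on each of the 6 arrays (columns), as the difference from the mean of the 2 Col arrays of that gene, with red above and blue below. Both ore15-1D columns are red in 44 of 44 rows, and ore15-2 replicate 2 is the lowest array in 43 of 44.

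Before the single genes are described, the arrays of a genotype need to be set apart, because they differed. The median log2 difference between replicate 1 and replicate 2 of ore15-2 was 0.93 over the 44 genes, with replicate 1 higher in 44 of 44, against a median absolute difference of 0.16 over all genes. ore15-2 replicate 2 was the lowest of the 6 arrays in 43 of 44 genes, the exception being MYB3R1, against 26.0% of all genes. Col replicate 1 exceeded Col replicate 2 in 40 of 44 genes by a median of 0.35, against 46.0% of all genes. The ore15-1D arrays had a median difference of -0.03. ore15-2 replicate 1 lay below both Col arrays in 32 genes and between them in 11, orders that were not counted over all genes. The first order holds for at least the 26.0% of all genes with both ore15-2 arrays below both Col arrays. The standard error of a genotype comparison was accordingly wider for these genes, with a median of 0.33 against 0.12 over all genes. For 16 DNA replication genes it was 0.16, and their median replicate difference was 0.40 in ore15-2 and -0.05 in Col.

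**Figure D2:**
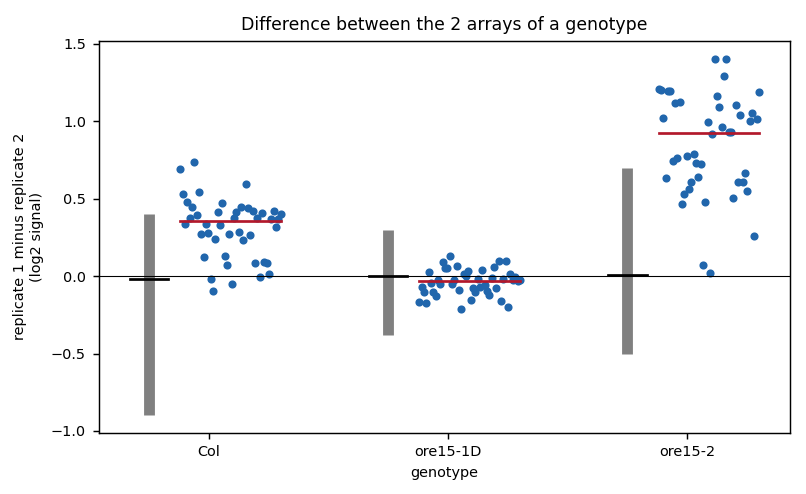
Log2 signal of replicate 1 minus replicate 2 of each genotype (x axis), with 1 point for each of the 44 genes, a red line at their median, and a grey bar from the 5th to the 95th percentile of all genes tested with a black line at the median. The points of ore15-2 lie around 0.93, those of Col around 0.35 and those of ore15-1D around -0.03.

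The 8 B-type cyclins, whose RNA and protein peak at mitosis, had a median log2 change of 0.88 in ore15-1D and -0.82 in ore15-2. In ore15-1D 1 of 8 rose, and in ore15-2 0 of 8 passed. CYCB2;3 (AT1G20610) had log2 levels of -2.61 and -2.51 in ore15-1D, -4.03 and -4.77 in Col, and -4.33 and -5.08 in ore15-2. It rose 3.59-fold in ore15-1D, a log2 change of 1.84 ± 0.35 (adjusted p = 0.0174), the largest of the 44 genes, but was at -0.24 under normexp background correction with the 75th percentile. Both ore15-1D arrays were far above the rest, and the arrays of Col and ore15-2 overlapped (-0.31 ± 0.35, adjusted p = 0.624). CYCB1;1 (AT4G37490, probe on chromosome 4, 17622172 to 17622231), the widely used marker of cells in G2 and M phase, had levels of -0.38 and -0.21 in ore15-1D, -1.16 and -1.85 in Col, and -1.52 and -2.73 in ore15-2. Its Col and ore15-2 arrays also overlapped, and its changes of 1.21 ± 0.46 in ore15-1D (adjusted p = 0.0913) and -0.61 ± 0.46 in ore15-2 (adjusted p = 0.469) did not pass.

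CYCB1;2 (AT5G06150) had levels of 1.06 and 1.12 in ore15-1D, 0.54 and 0.01 in Col, and -0.06 and -1.26 in ore15-2. CYCB1;3 (AT3G11520) had 0.41 and 0.52 in ore15-1D, -0.55 and -0.89 in Col, and -1.0 and -2.02 in ore15-2. CYCB1;4 (AT2G26760) had 0.75 and 0.92 in ore15-1D, 0.25 and -0.23 in Col, and -0.43 and -1.07 in ore15-2. In these 3 genes the genotypes did not overlap, and the ore15-2 arrays were at least 0.64 apart. Their log2 changes were 0.82 ± 0.43, 1.18 ± 0.36 and 0.83 ± 0.27 in ore15-1D (adjusted p = 0.182, 0.0533 and 0.0667) and -0.93 ± 0.43, -0.79 ± 0.36 and -0.76 ± 0.27 in ore15-2 (adjusted p = 0.283, 0.273 and 0.203). The remaining B-type cyclins, CYCB2;1 (AT2G17620), CYCB2;2 (AT4G35620) and CYCB2;4 (AT1G76310), had changes of 0.75 to 0.93 in ore15-1D and -0.91 to -0.84 in ore15-2, none of which passed.

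The 7 A-type cyclins, some of which already act in S phase, had a median log2 change of 0.87 in ore15-1D and -0.46 in ore15-2. In ore15-1D 3 of 7 rose. CYCA2;3 (AT1G15570), which with CDKB1;1 holds back the endocycle, had levels of 1.28 and 1.23 in ore15-1D, 0.38 and 0.04 in Col, and 0.37 and -0.17 in ore15-2. It rose by a log2 change of 1.05 ± 0.22 (2.07-fold, adjusted p = 0.0214), while its Col and ore15-2 arrays overlapped (-0.11 ± 0.22, adjusted p = 0.789). CYCA2;4 (AT1G80370), of the same subfamily, had -1.48 and -1.53 in ore15-1D, -2.37 and -2.66 in Col, and -2.71 and -3.49 in ore15-2. Its change of 1.01 ± 0.28 in ore15-1D passed (2.01-fold, adjusted p = 0.0425). CYCA3;1 (AT5G43080), of a subfamily expressed earlier in the cell cycle, had -1.07 and -1.20 in ore15-1D, -2.01 and -2.0 in Col, and -2.19 and -2.75 in ore15-2. It rose by 0.87 ± 0.20 (1.83-fold, adjusted p = 0.0275), and its 2 Col arrays differed by less than those of ore15-2.

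CYCA1;1 (AT1G44110) had levels of 1.23 and 1.25 in ore15-1D, 0.60 and 0.05 in Col, and 0.16 and -0.61 in ore15-2. Its change of 0.92 ± 0.31 in ore15-1D did not pass (adjusted p = 0.0715). CYCA2;1 (AT5G25380), CYCA2;2 (AT5G11300) and CYCA3;2 (AT1G47210) had changes of 0.74, 0.50 and 0.71 in ore15-1D, none of which passed. CYCA2;1 was the one gene of the 44 with an array not well above background, in ore15-2. CYCA3;2 had a second probe whose change in ore15-2 was 0.06 where the brighter probe gave -0.37.

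B-type CDKs are specific to plants and act at the entry to mitosis, and CKS proteins are small subunits that bind CDKs. Of these 6 genes 3 rose in ore15-1D and 0 passed in ore15-2, and in all 6 both ore15-2 arrays lay below both Col arrays. CDKB1;2 (AT2G38620) had levels of 1.08 and 1.02 in ore15-1D, -0.06 and -0.48 in Col, and -0.58 and -1.31 in ore15-2. It rose 2.50-fold in ore15-1D (log2 change 1.32 ± 0.28, adjusted p = 0.0231) and its change in ore15-2 was -0.67 ± 0.28 (adjusted p = 0.249). CDKB1;1 (AT3G54180), its close relative, had 0.32 and 0.34 in ore15-1D, -0.62 and -0.87 in Col, and -1.01 and -1.80 in ore15-2. It rose by 1.08 ± 0.28 (2.11-fold, adjusted p = 0.036), so that both CDKB1 genes passed. Of the CDKB2 pair, which is confined more tightly to mitosis, CDKB2;1 (AT1G76540) had 0.31 and 0.40 in ore15-1D, -0.19 and -0.52 in Col, and -0.74 and -1.38 in ore15-2. Neither its change of 0.71 ± 0.25 (adjusted p = 0.0745) nor that of CDKB2;2 (AT1G20930), 0.92 ± 0.30 (adjusted p = 0.0634), passed in ore15-1D.

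The neighbouring genes CKS1 and CKS2 gave different values. CKS2 (AT2G27970, probe on chromosome 2, 11912510 to 11912569) had levels of 2.61 and 2.61 in ore15-1D, 1.91 and 1.84 in Col, and 1.63 and 1.15 in ore15-2. It rose by 0.73 ± 0.17 in ore15-1D (1.66-fold, adjusted p = 0.0291). CKS1 (AT2G27960) had 1.37 and 1.35 in ore15-1D, 1.30 and 1.17 in Col, and 0.98 and 0.91 in ore15-2. Its change in ore15-1D, 0.13 ± 0.09, was the smallest of the 44 genes and did not pass (adjusted p = 0.281), and in ore15-2 it was -0.29 ± 0.09 (adjusted p = 0.15). The proteins of the pair are alike, and whether a probe also takes up RNA of the other gene was not tested.

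MYB3R4 and MYB3R1 are regarded as activators of G2 and M phase genes, MYB3R1 also as a repressor, and they differed from each other here. MYB3R4 (AT5G11510), whose own RNA rises with mitosis, had levels of 0.49 and 0.45 in ore15-1D, -0.53 and -0.80 in Col, and -0.96 and -1.96 in ore15-2. Its changes of 1.13 ± 0.34 in ore15-1D (adjusted p = 0.0535) and -0.79 ± 0.34 in ore15-2 (adjusted p = 0.259) were close to those of the cyclins and did not pass. MYB3R1 (AT4G32730) had -1.65 and -1.50 in ore15-1D, -2.03 and -1.98 in Col, and -1.89 and -1.91 in ore15-2. It rose by 0.43 ± 0.09 in ore15-1D (1.34-fold, adjusted p = 0.0216), with -0.42 under normexp with the 75th percentile and 0.29 under normexp with quantile normalization (adjusted p = 0.0209). In ore15-2 its change was 0.10 ± 0.09 (adjusted p = 0.539), the one positive value of the 44 genes, and the ore15-2 arrays were 0.02 apart. MYB3R3 and MYB3R5, repressors of the family that are not among the 44 genes, had changes of 0.25 ± 0.15 and 0.49 ± 0.19 in ore15-1D, and neither passed (adjusted p = 0.229 and 0.0916).

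The 5 genes of the Aurora kinases and the spindle had log2 changes of 0.61 to 1.22 in ore15-1D and -0.81 to -0.58 in ore15-2, and 0 of 5 passed in either (limma). AUR3 (AT2G45490), a kinase of the centromere region, had levels of -0.08 and -0.07 in ore15-1D, -1.16 and -1.44 in Col, and -1.49 and -2.66 in ore15-2. Its change of 1.22 ± 0.39 in ore15-1D had an adjusted p of 0.0627. AUR1 (AT4G32830), a kinase of the spindle and the forming cell plate, had 1.28 and 1.36 in ore15-1D, 0.90 and 0.53 in Col, and 0.43 and -0.49 in ore15-2. AUR2 (AT2G25880), its close relative, had 0.24 and 0.34 in ore15-1D, -0.28 and -0.70 in Col, and -0.56 and -1.96 in ore15-2. In AUR2 the ore15-2 arrays lay 1.40 apart and on either side of Col replicate 2. TPX2 (AT1G03780), a spindle assembly factor that binds Aurora kinases, had 0.38 and 0.45 in ore15-1D, -0.37 and -0.81 in Col, and -0.86 and -1.95 in ore15-2. EDE1 (AT2G44190), a microtubule-binding protein of the spindle and phragmoplast, had changes of 0.78 ± 0.33 and -0.58 ± 0.33 (adjusted p = 0.116 and 0.36).

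Of 8 genes that control the spindle checkpoint or the APC/C, 3 rose in ore15-1D, among them both related APC/C inhibitors of the list. OSD1 (AT3G57860, probe on chromosome 3, 21427722 to 21427781), which holds back the APC/C and is needed for entry into the second meiotic division, had levels of -1.23 and -1.15 in ore15-1D, -2.69 and -3.06 in Col, and -2.85 and -3.95 in ore15-2. It rose 3.22-fold (log2 change 1.69 ± 0.38, adjusted p = 0.027), and its Col and ore15-2 arrays overlapped. UVI4 (AT2G42260), an inhibitor of the APC/C that restrains the endocycle, had -1.40 and -1.50 in ore15-1D, -2.70 and -2.69 in Col, and -2.74 and -3.35 in ore15-2. It rose 2.37-fold (1.24 ± 0.21, adjusted p = 0.0143), with Col arrays that differed by 0.01. BUB3.1 (AT3G19590), a spindle checkpoint protein, had 0.92 and 0.86 in ore15-1D, 0.02 and -0.06 in Col, and -0.26 and -0.77 in ore15-2. It rose 1.88-fold (0.91 ± 0.18, adjusted p = 0.0197), and its change in ore15-2 was -0.50 ± 0.18 (adjusted p = 0.208).

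CDC20.1 (AT4G33270), an activator of the APC/C, had levels of 1.76 and 1.82 in ore15-1D, 1.21 and 0.62 in Col, and 0.76 and -0.53 in ore15-2. Its adjacent relative CDC20.2 (AT4G33260) had the highest adjusted p of the 44 genes in ore15-1D (0.70 ± 0.48, adjusted p = 0.283), and its probe was not tested for RNA of CDC20.1. PANS1 (AT3G14190), which protects the cohesion of chromosomes, had 1.05 and 1.21 in ore15-1D, 0.55 and 0.14 in Col, and 0.17 and -0.87 in ore15-2. In CDC20.1 and PANS1 one ore15-2 array lay between the Col arrays and the other far below them. The checkpoint proteins MAD2 (AT3G25980) and BUBR1 (AT2G33560) had changes of 0.56 and 0.75 in ore15-1D and -0.81 and -0.91 in ore15-2, none of which passed.

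Among 4 genes of chromosome structure 3 rose in ore15-1D, and in all 4 the ore15-2 arrays lay below both Col arrays. SMC2 (AT5G62410), a condensin subunit, had levels of 0.92 and 0.94 in ore15-1D, -0.07 and -0.16 in Col, and -0.27 and -0.88 in ore15-2. It rose 2.05-fold (1.04 ± 0.21, adjusted p = 0.0206). SMC3 (AT5G48600), named so in the gene table and of the same protein family, rose by 0.85 ± 0.23 (1.81-fold, adjusted p = 0.0411), from -0.15 and -0.24 in Col to 0.71 and 0.61 in ore15-1D, with -0.28 and -0.95 in ore15-2. 3xHMG-box1 (AT4G11080), a protein that binds condensed chromosomes, had -0.61 and -0.41 in ore15-1D, -1.65 and -1.67 in Col, and -1.81 and -2.36 in ore15-2. It rose 2.22-fold (1.15 ± 0.20, adjusted p = 0.0151). The related 3xHMG-box2 (AT4G23800) had 3.20 and 3.19 in ore15-1D, 2.25 and 1.88 in Col, and 1.53 and 0.53 in ore15-2. Its changes were 1.13 ± 0.35 in ore15-1D (adjusted p = 0.0581) and -1.04 ± 0.35 in ore15-2 (adjusted p = 0.185), and a dimmer probe of the gene gave 0.55 and -1.84.

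Of the 4 cytokinesis genes, TES rose in ore15-1D and the other 3 did not pass. TES (AT3G43210, probe on chromosome 3, 15195941 to 15196000), the kinesin TETRASPORE that acts in the phragmoplast, had levels of -0.10 and -0.10 in ore15-1D, -1.18 and -1.49 in Col, and -1.51 and -1.77 in ore15-2. It rose 2.36-fold (1.24 ± 0.15) with the lowest adjusted p of the 44 genes, 0.00789, and its change in ore15-2 was -0.30 ± 0.15 (adjusted p = 0.311). KNOLLE (AT1G08560, probe on chromosome 1, 2709779 to 2709838), the syntaxin that fuses vesicles into the cell plate, had 3.40 and 3.42 in ore15-1D, 2.77 and 2.35 in Col, and 2.04 and 0.98 in ore15-2. Its change of -1.05 ± 0.37 in ore15-2, a ratio of 0.482 to Col, was the most negative of the 44 genes and did not pass (adjusted p = 0.2), nor did its change of 0.85 ± 0.37 in ore15-1D (adjusted p = 0.129). HIK (AT1G18370), the kinesin HINKEL that acts with TES, had 1.98 and 2.01 in ore15-1D, 1.18 and 0.81 in Col, and 0.59 and -0.43 in ore15-2. PLE (AT5G51600), a microtubule-bundling protein of the phragmoplast midzone, had 0.30 and 0.33 in ore15-1D, -0.44 and -0.84 in Col, and -0.93 and -2.13 in ore15-2. Neither HIK (1.01 ± 0.36, adjusted p = 0.079) nor PLE (0.96 ± 0.41, adjusted p = 0.121) passed in ore15-1D, although in both genes the 3 genotypes did not overlap.

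**Figure D3:**
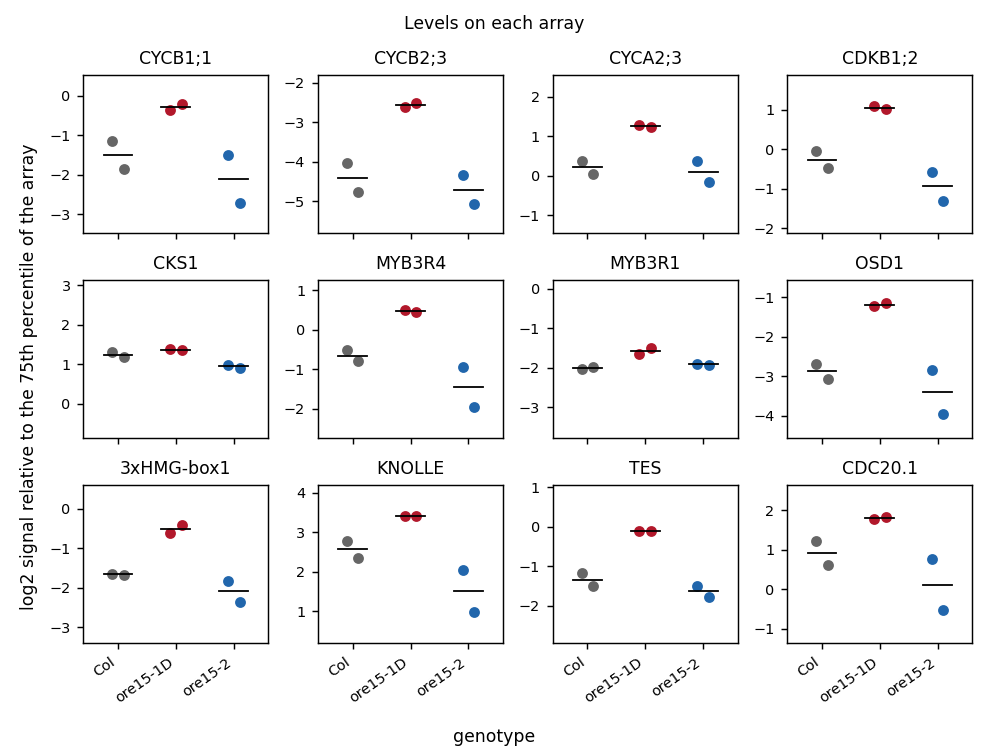
Log2 signal minus the array's 75th percentile (y axis, a range of equal width in each panel) of 12 of the genes in Col, ore15-1D and ore15-2 (x axis), with 1 point per array and a line at the mean of 2 arrays. The ore15-1D points lie above all others in each panel, narrowly for CKS1 (1.37 and 1.35 against 1.30 and 1.17 in Col), and MYB3R1 shows ore15-2 above Col.

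The 15 genes that rose in ore15-1D were thus spread over 7 of the 8 roles. They were CYCB2;3, CYCA2;3, CYCA2;4, CYCA3;1, CDKB1;1, CDKB1;2, CKS2, MYB3R1, BUB3.1, OSD1, UVI4, SMC2, SMC3, 3xHMG-box1 and TES. With normexp background correction and the 75th percentile 0 of 44 passed (13 at an unadjusted p below 0.05), with 37 changes positive and 7 negative (CYCA2;1, CYCA2;2, MYB3R1, EDE1, CYCB2;1, CYCB2;3 and CDKB2;2). That setting moved the median of all genes to -0.25, and 0 of all genes passed there. The number that passed also moved with single arrays. It was 0 without ore15-1D replicate 1 and 0 without ore15-1D replicate 2 (13 at an unadjusted p below 0.05 in each), 6 without Col replicate 1, 1 without Col replicate 2 (TES), and 41 without ore15-2 replicate 1 or 2. The last 2 fits leave a lone ore15-2 array that adds nothing to the estimate of the spread, and the 15 genes were among the 41 in both. Calls over all genes moved too, from 8246 to 846 and 1093 without ore15-1D replicate 1 and 2, 6245 and 3872 without Col replicate 1 and 2, and 8655 without either ore15-2 array. The median change over the 44 genes was between 0.73 and 1.08 in all 6 of these fits, with 44 of 44 changes positive.

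In ore15-2 the values depended on replicate 2. Without it the median log2 change over the 44 genes was -0.22, with 39 of 44 changes negative and 0 passed (1 at an unadjusted p below 0.05). Without ore15-2 replicate 1 the median was -1.08, and 21 of 44 genes passed, all lower than Col, where 779 of 20282 genes in all were lower. A lone ore15-2 array is assumed in these fits to vary like those of the other genotypes.

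**Figure D4:**
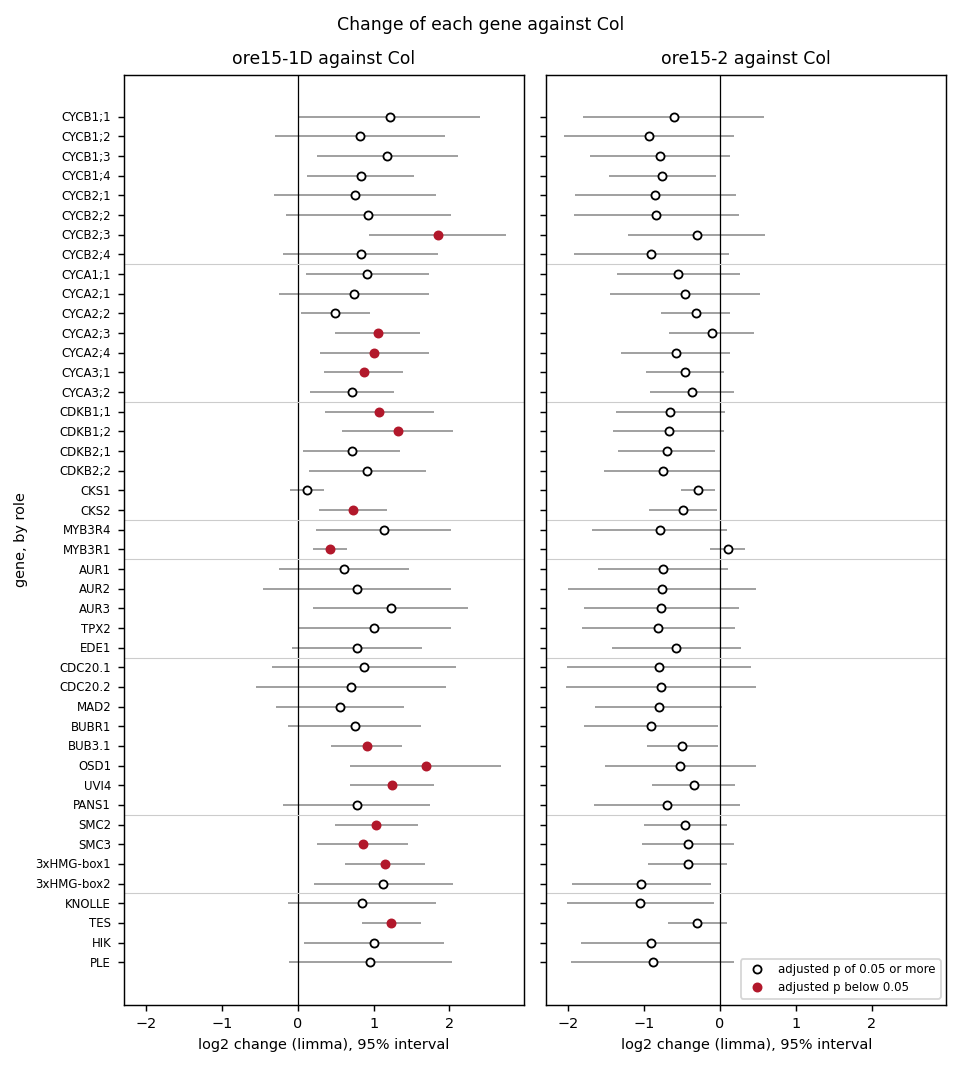
Log2 change against Col (x axis) of each of the 44 genes (rows, by role) in ore15-1D (left) and ore15-2 (right), with 95% intervals from limma and filled points for an adjusted p below 0.05. In ore15-1D 15 points are filled and all 44 lie above 0, and in ore15-2 none is filled (8 at an unadjusted p below 0.05) and 43 lie below 0.

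Set against each other without Col, the mutants differed in nearly all of these genes. In ore15-1D 43 of 44 were higher than in ore15-2, and CDC20.2 missed the threshold (1.48 ± 0.48, adjusted p = 0.0521). Of all genes tested 55.7% passed in this comparison, 26.2% higher and 29.5% lower. Both ore15-1D arrays exceeded both ore15-2 arrays for 44 of 44 genes and for 41.4% of all genes. The median log2 difference over the 44 genes was 1.59. It ranged from 0.33 ± 0.09 for MYB3R1 (adjusted p = 0.0308) to 2.21 ± 0.38 for OSD1 (4.62-fold, adjusted p = 0.00964). 3xHMG-box2 (4.5-fold), CYCB2;3 (4.44-fold), AUR3 (4.00-fold) and CDKB1;2 (3.99-fold) also differed widely. By role the median was lowest for the MYB3R pair (1.13) and the A-type cyclins (1.21) and highest for cytokinesis (1.87) and B-type cyclins (1.76). Since each mutant lay on its own slide, the difference was also taken through the Col array of each slide. The median was then 1.23 with 44 of 44 differences positive, and 0 genes passed (12 at an unadjusted p below 0.05), as also held for all genes (0 of 20286, 7508 unadjusted). The median was 1.60 and 1.55 without ore15-1D replicate 1 and 2. The median was 1.18 without ore15-2 replicate 2 and 2.02 without replicate 1.

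Within slides the order of the genotypes could be read against 1 Col array each. On slide 1 both ore15-1D arrays exceeded Col replicate 1 in 44 of 44 genes, by a median of 0.73, from 0.06 for CKS1 to 1.5 for OSD1. On slide 2 both ore15-2 arrays were below Col replicate 2 in 32 of 44 genes and above it in 1, MYB3R1. The median there was -0.50. Over all genes the medians were 0.005 on slide 1 and -0.012 on slide 2, and genes with these orders were not counted. Of all genes, 40.0% lay above both Col arrays in ore15-1D and 26.0% below both in ore15-2. The orders within slides therefore hold for at least these shares of all genes. The values on slide 2 were -0.84 for KNOLLE, -0.86 for 3xHMG-box2, -0.27 for CYCB1;1, and 0.06 for both CYCB2;3 and CYCA2;3. With slide as a fixed block 1 of 44 genes passed in ore15-1D, TES, and 0 in ore15-2 (0 at an unadjusted p below 0.05). Over all genes 3877 of 20286 passed in ore15-1D under that block, 1585 of them higher, and 1 of 20284 in ore15-2. As a random block, with a consensus correlation of 0.06, slide left 15 and 0.

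Further genes of cell division outside the 44 were described from 3 lists. In ore15-1D 18.6% of all genes tested rose and 22.1% fell. Of 14 APC/C subunits and activators 10 rose in ore15-1D, with a median log2 change of 0.78, and 0 passed in ore15-2. They included the subunits APC4 (1.44 ± 0.10, adjusted p = 0.00432), APC8 (1.09 ± 0.12, adjusted p = 0.00667) and APC6 (1.07 ± 0.22, adjusted p = 0.0224). Of 20 other cytokinesis and phragmoplast genes 11 rose and 1 fell, SNAP33, a membrane fusion protein (-0.38 ± 0.07, adjusted p = 0.0175). The risers included ANP3 (1.23 ± 0.35, adjusted p = 0.0461), RUNKEL (1.21 ± 0.18, adjusted p = 0.0113) and ANP2 (1.15 ± 0.21, adjusted p = 0.0161), which act in the phragmoplast. Of 9 genes of the kinetochore, cohesion and mitotic control 4 rose, among them the centromere proteins CENP-C (1.26 ± 0.19, adjusted p = 0.0117) and CENH3 (1.14 ± 0.25, adjusted p = 0.0259) and the separase ESP (0.98 ± 0.24, adjusted p = 0.0309). In ore15-2 the 3 lists had medians of -0.11, -0.22 and -0.29. There 0 of 43 genes passed, close to the 3.73% of all genes tested.

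The DNA replication genes, which act one phase earlier, gave the comparison with S phase. In ore15-1D 13 of 16 rose, with a median log2 change of 0.77, where 18.6% of all genes tested rose. In ore15-2 0 of 16 passed, close to the 3.73% of all genes tested. The median there was -0.31, where the 44 mitosis and cytokinesis genes had -0.69. The medians in ore15-1D were 0.77 and 0.89. The share that rose was 81.3% of the replication genes and 34.1% of the mitosis and cytokinesis genes, with the wider spread between replicate arrays of the latter given above. No test of the difference between these lists was made.

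Markers of other cell types in the leaf were read beside these values. All 6 leaf mesophyll markers, photosynthesis genes such as RBCS1B (-1.12 ± 0.14, adjusted p = 0.0085) and CA1 (-1.70 ± 0.22, adjusted p = 0.00885), fell in ore15-1D, with a median of -1.04. None of them passed in ore15-2 (limma), where the median was 0.26. Their summed signal, in units of the array's 75th percentile, was 952 to 1032 in ore15-1D, 1721 to 1890 in Col and 2009 to 2252 in ore15-2, and highest on ore15-2 replicate 2. The summed signal of the 44 genes ran the other way, with 77.4 to 79.0 in ore15-1D, 37.9 to 47.6 in Col and 19.9 to 34.6 in ore15-2. Such a sum gives most weight to the brightest probes, among the 44 genes those of KNOLLE, 3xHMG-box2 and CKS2. Stomatal lineage cells also divide at this age. Of 7 stomatal lineage markers 0 rose and 2 fell in ore15-1D, FAMA (-0.83 ± 0.14, adjusted p = 0.0148) and EPF1 (-0.60 ± 0.09, adjusted p = 0.0104). In that comparison 18.6% of all genes tested rose and 22.1% fell, so 2 of 7 is near the share of all genes. The median of the 7 was 0.24, with BASL (0.55), EPF2 (0.27), TMM (0.25) and SPCH (0.24) above 0, MUTE (-0.30) below 0, and none of these passed. Their summed signal was 12.3 to 13.4 in ore15-1D, 10.9 to 12.9 in Col and 10.7 to 13.5 in ore15-2. The higher value of Col and ore15-2 was that of replicate 1, as in the 44 genes. TMM, the brightest of the 7 markers, weighs most in this sum. Gene by gene, replicate 1 was higher in 5 of 7 markers in Col and 6 of 7 in ore15-2. FAMA was lower in replicate 1 of both, with 0.02 and 0.23 in Col and 0.20 and 0.44 in ore15-2. The shoot meristem genes STM, KNAT1, WUS and CLV3 were not well above background on any of the 6 arrays, and CLV1 fell in ore15-1D (-0.78 ± 0.12, adjusted p = 0.0109). Of 5 flower markers PI alone was measured in all genotypes, and it rose in ore15-2 (1.88 ± 0.20, adjusted p = 0.0232). Of 5 root markers 4 were tested and 3 fell in ore15-1D, with a summed signal of 0.265 to 0.305 there, 0.534 to 0.561 in Col and 0.450 to 0.570 in ore15-2. The part of cell composition in the values of the 44 genes was not tested.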

How the data were processed

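Cy3-labelled RNA was hybridised to 1-colour arrays of 45220 spots. Per the submitters' processing notes, scans were read with Agilent Feature Extraction 11.5. The processed signal is a linear intensity with the background subtracted, per the file headers. Tables of log2 values that the authors deposited, with a scaling that the sources used here do not give, served as an alternative.

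Control spots (1417 an array) and spots marked as outliers were dropped, and repeated spots of a probe averaged. Probes were named by the deposited element table, which pairs them with TAIR10 loci. Of several probes of a locus, as 8 of the 44 genes have, the brightest was taken. Log2 signal minus the 75th percentile of each array was fitted with limma 3.58.1 in R 4.3.3 (lmFit and eBayes) on all 6 arrays, with 3 residual and 1.80 prior degrees of freedom. The filter kept genes well above background on 2 of 2 arrays in 1 genotype or more. Tests were two-sided, adjusted by Benjamini-Hochberg over all genes tested, with a threshold of 0.05. A level is relative to its own array and is not compared between probes, while the summed signals add probes and weigh bright ones most.

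The 44 genes, the other lists and the markers were chosen with earlier results of these data known, and no p-value was computed for a list. Array values are printed for genes that passed in any of the 3 comparisons, up to 12 with the largest change in each. They are also printed for the genes of each role with the highest signal in Col, and for CYCB1;1, KNOLLE, CDKB2;1, MYB3R1 and MYB3R4. SMC3 values are printed beyond this rule, and other genes are summarised. Of other lists, up to 3 genes that passed with the largest change are named, and other genes of these lists and of the marker lists were picked with their values in view. The alternatives tried were normexp background correction (offset 50) with either scaling, quantile normalization, the mean of probes, no filter on background, slide and replicate number as blocks, single slides, a trend in the spread, the deposited table, and leaving out each array. A fit of only the genotypes compared was added after seeing the data. Sequences and promoter motifs were not analysed here.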

Additional observations from a re-analysis of the deposited data

How the results depend on the processing

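The direction of the median over the 44 genes held in all 3 comparisons and all alternatives run. Normexp took the median spot signal, as no mean was at hand. With normexp and the 75th percentile 0 of the 44 genes and 0 of all genes passed in ore15-1D (13 and 2245 at an unadjusted p below 0.05), in ore15-2 (all genes 725) and between the mutants (29 and 2831). It moved the median of all genes to -0.25 in ore15-1D and -0.22 in ore15-2, and turned CYCB2;3 (-0.24) and MYB3R1 (-0.42) in ore15-1D and MYB3R1 (-0.61) in ore15-2 to lower than Col. It also turned CYCA2;1 (-1.13), CYCA2;2 (-0.85), EDE1 (-0.31), CYCB2;1 (-0.26) and CDKB2;2 (-0.03) in ore15-1D. OSD1 in ore15-2 had -1.07 to 0.028 when 1 array was left out, the positive value without ore15-2 replicate 2. The causes were not tested.

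In ore15-1D, 32 of the 44 genes passed with normexp and quantile normalization, 25 with a trend in the spread and 23 with the authors' deposited table. With only the genotypes compared 41 passed, and with slide as a fixed block 1. The median log2 change was 0.73 on a single slide and 0.73 to 1.08 when 1 array was left out. In ore15-2, 0 passed in all of these except when 1 array was left out (0 to 21, median -1.08 to -0.22). Between the mutants 0 passed with slide as a fixed block and 10 to 43 when 1 array was left out, with a median of 1.18 to 2.02, and the median was 1.21 with normexp and quantile normalization. No slide held both mutants, so a single slide gave no value there.

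Over all genes, 8246 passed in ore15-1D, 3877 with slide as a fixed block and 846 to 8655 when 1 array was left out. The 8246 were 3771 higher and 4475 lower, against 4659 and 3690 with quantile normalization and 4739 and 3569 with normexp and quantile normalization. The split was 4654 and 3375 with the authors' deposited table, and 2707 and 5367 without the filter. Higher and lower together, 9068 passed with a trend in the spread and 8655 with only the genotypes compared. In ore15-2, 756 passed, 1210 with normexp and quantile normalization, 0 without the filter, 1 with slide as a fixed block, 3 with the replicate block, 1159 with a trend in the spread, 0 with only the genotypes compared, 0 on a single slide, and 0 to 1347 when 1 array was left out. Between the mutants, 11305 passed, 0 with slide as a fixed block and 4797 to 11422 when 1 array was left out.

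With the replicate number as a block 18, 0 and 43 of the 44 genes passed in the 3 comparisons, against 15, 0 and 43. Same-numbered arrays of 2 genotypes correlated at -0.09, -0.01 and 0.13 in their deviations, so the numbers were not taken as pairs. Of all values of the named genes under an alternative, 1355 kept direction and side of the threshold, 104 newly passed, 197 no longer passed and 4 turned. The number of arrays limits the precision, and p-values rest on a spread estimated from 2 samples a genotype and pooled over the 3 genotypes.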
